A study of Homo sapiens with 3 samples.

Results

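The genes described here are those of the glial cell line-derived neurotrophic factor (GDNF) family receptor system in 1205Lu melanoma cells: the co-receptors GFRA1, GFRA2 and GFRA3, the receptor tyrosine kinase RET, the ligands GDNF, NRTN and ARTN, and the adhesion molecule NCAM1. The members were every non-control probe whose gene name on the array was one of these 8 symbols, which gave 13 probes in 22 spots, out of 30982 gene names on the array. The group was selected on the measured signal of GFRA2, which was higher on the MB array than on the OM and NM arrays, so the GFRA2 ratios below are a description of what chose it and carry no test. 1205Lu is a human line from a lung metastasis that WM793 melanoma cells formed as a xenograft in mice. OM (original monolayer) was the line after 14 days in RPMI-1640 with 10% fetal calf serum. MB (melanoma stem cell-like bodies) was the same line after 14 days as three-dimensional adherent bodies in human embryonic stem cell (hESC) medium, which holds DMEM F-12 and 20% knockout serum replacement. NM (new monolayer) came from bodies kept 14 days in hESC medium and then moved for 10 days to the RPMI-1640 medium, with leftover bodies taken away before RNA was prepared. MB differed from both monolayers in medium and in growth form at once, and these cannot be told apart. One array was hybridised for each population, so no value has a biological replicate and no p-value is given. In bulk RNA, fewer cells of a kind and less RNA per cell cannot be told apart either.

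GDNF family ligands are secreted proteins that bind a GFRA co-receptor held in the outer membrane by a lipid anchor, and the complex then brings together and activates RET, whose kinase domain starts signalling through adaptor proteins. GDNF prefers GFRA1, neurturin (NRTN) prefers GFRA2 and artemin (ARTN) prefers GFRA3. Where RET is absent, GDNF bound to GFRA1 can also signal through NCAM1. The system is best known for the survival and migration of neurons and of enteric neural crest cells, and melanocytes too arise from the neural crest.

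Because several members are read by more than 1 probe, the probes of the ligands and of GFRA1 are shown here, to let a reader see that probes of the same gene do not share sequence. Each is the 60-base sequence printed on the array, 5′ to 3′, and positions are in hg17, as the deposited files give them. The capitals mark the longest stretch that any probe of another gene on the array also holds, which was 12 to 14 bases long in these 6. Each has at least 1 reading frame with no stop codon. The first GFRA1 probe crosses a splice junction, since its ends lie 24174 bases apart in the genome (chr10:117815123-117839296, minus strand), and the second lies at chr10:118020332-118020391, minus strand. The GDNF probes lie at chr5:37851722-37851781 and chr5:37851934-37851993, minus strand, the NRTN probe at chr19:5779120-5779179, plus strand, and the ARTN probe at chr1:44071314-44071373, plus strand.
GFRA1 probe 1: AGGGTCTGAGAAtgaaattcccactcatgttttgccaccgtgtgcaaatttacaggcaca
GFRA1 probe 2: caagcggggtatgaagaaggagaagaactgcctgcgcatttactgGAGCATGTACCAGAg
GDNF probe 1: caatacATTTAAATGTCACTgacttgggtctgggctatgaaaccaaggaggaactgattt
GDNF probe 2: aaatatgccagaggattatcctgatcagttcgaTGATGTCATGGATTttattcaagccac
NRTN: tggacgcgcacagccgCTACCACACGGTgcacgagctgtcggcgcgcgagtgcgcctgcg
ARTN: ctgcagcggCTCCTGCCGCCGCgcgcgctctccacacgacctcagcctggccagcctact

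Probes of a gene are numbered by brightness, and signals are in arbitrary units (a.u.) after the scanner software had subtracted background, unscaled, each with the error that the software gives for a spot. Of 41000 probes, those well above background numbered 28746 for OM, 29125 for MB and 26516 for NM. The lowest signals well above background were 20.9, 19.4 and 29.1 a.u. Before ratios were taken, the mean signal of GAPDH, ACTB and HSP90AA1, 3 housekeeping genes, was set equal on all arrays by a factor, which put MB at 0.978 and NM at 0.877 of OM. A ratio is set against the technical SD of the log2 ratio of single spots. This was taken from the 264 probes printed in 10 spots on each array. Only those well above background on at least 1 of the arrays compared were used. The SD ran from 0.031 to 0.44 from bright to dim signals, and it leaves out all variation between cultures. Where the dimmer signal was under 50 a.u., the SD rests on 8 probes for MB over OM and on 10 for each other pair. Relative to OM, the median log2 ratio of the genes measured was 0.09 for MB and 0.05 for NM, and with other scalings it lay between -0.19 and 0.09 for MB and between -0.14 and 0.12 for NM.

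GFRA2, the co-receptor that neurturin prefers, was far brighter in MB than in either monolayer. Its first probe gave 59.1 ± 7.57 a.u. in OM, 1297 ± 130 in MB and 32.7 ± 7.18 in NM. Its second probe gave 45.8 ± 6.92 a.u. in OM, 1278 ± 128 in MB and 26.7 ± 7.56 in NM, the last not well above background. The third gave 59.7 ± 7.30 a.u. in OM, 428 ± 43.0 in MB and 64.2 ± 8.71 in NM. All 3 probes were bright on MB only, and both monolayers lay near the lower end of what the array measures.

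After scaling, GFRA2 was 22.5-fold higher in MB than in OM by the first probe, with a technical SD of 0.17 on the log2 scale, 28.5-fold by the second (SD 0.44) and 7.34-fold by the third (SD 0.17). Against NM the values were 35.6-fold (SD 0.36), at least 39.4-fold and 5.99-fold (SD 0.13). These comparisons share the MB array. OM and NM, next to each other in the order of levels, were not separated by the probes: NM over OM had a log2 ratio of -0.67 by the first (SD 0.36), while the second gave OM at least 1.38-fold higher, and the third had a log2 ratio of 0.29 with NM the higher (SD 0.16). The order of the monolayers thus depended on the probe, and the measured differences were under 2 technical SDs.

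With a ratio of 5-fold or more and over 100 a.u. on the brighter array, the rule the study applied to its arrays, 3 of 13 member probes were higher in MB than in OM, and all of them were GFRA2. Over the array 0.564% of 40984 probes passed in this direction, and 0.349% passed as lower in MB, where no member did. Against NM the same 3 probes were higher in MB, beside 1.58% of 40992 probes, and 0 were lower, beside 0.844%. Between NM and OM, 0 members passed in either direction, with 0.366% of 40981 probes higher in NM and 0.515% lower. The GFRA2 values are part of what chose the members, so nothing is read from these counts. The GFRA2 probe nearest the threshold was the third, at 5.99-fold over NM, and the member next below it in MB over OM was GFRA3 at 1.61-fold.

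**Figure D1:**
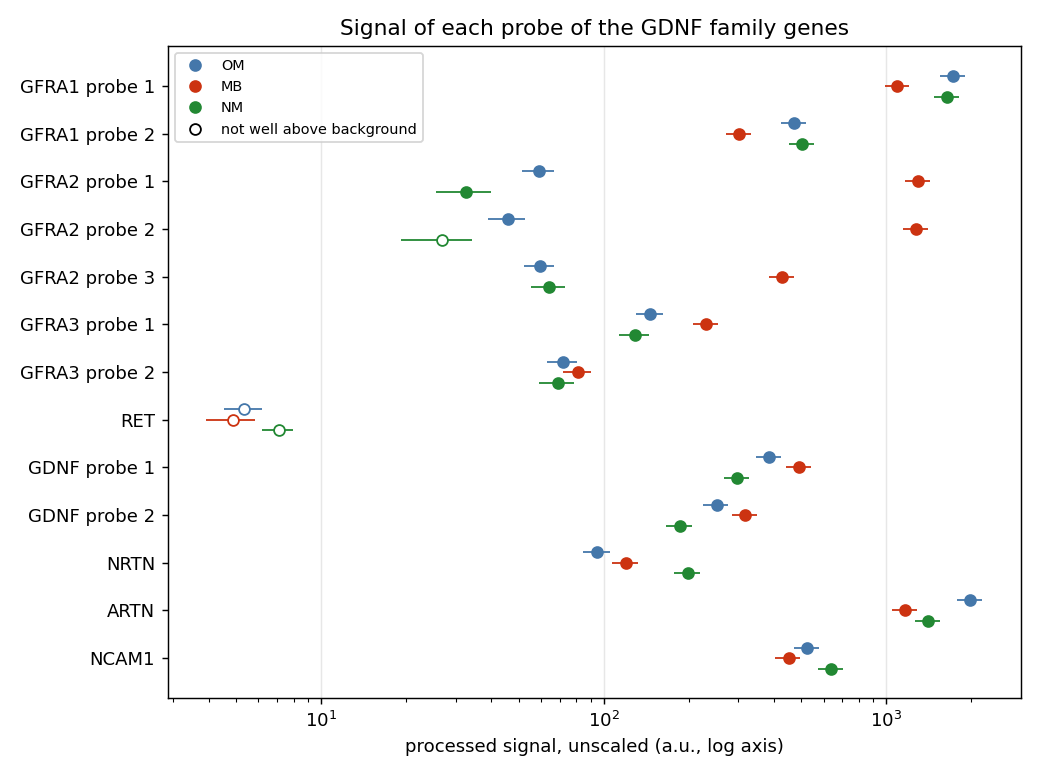
Unscaled signal in a.u. (log axis) of the 13 probes on the OM, MB and NM arrays, with the scanner software's error of a spot as bars (for RET, the SD over its spots) and open circles where a probe was not well above background. GFRA2 sits at 428 to 1297 a.u. on MB and at 26.7 to 64.2 a.u. on the monolayers, and RET stays under 10 a.u. on every array.

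The GFRA2 probes lie on a part of chromosome 8 that hg17 had not yet placed, at 515796 to 515855, 515925 to 515984 and 515189 to 515248 for probes 1, 2 and 3, all on the plus strand, and the array assigns all of them to 1 transcript. Neighbouring spots on the glass, up to 2 rows or columns away, were read for the same change. Past 5-fold in MB over OM with a signal above 100 a.u. were 0 of 24 neighbours of the first probe, 0 of 23 of the second and 1 of 24 of the third.

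The other co-receptors moved little. GFRA1, which binds GDNF, gave 1721 ± 172 a.u. in OM, 1096 ± 110 in MB and 1646 ± 165 in NM by its first probe. By its second probe the signals were 472 ± 47.4, 301 ± 30.4 and 504 ± 50.8 a.u. MB was thus the lowest array for GFRA1 by both probes, opposite to GFRA2. The MB over OM ratio was 0.652 by the first (log2 -0.62, SD 0.03) and 0.653 by the second (log2 -0.62, SD 0.05). MB over NM came to 0.598 and 0.536. NM over OM was 1.09 and 1.22, and the sign of the first turned with no scaling (log2 -0.06) and with spike-in scaling (log2 -0.02).

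GFRA3, the artemin co-receptor, gave 146 ± 15.7 a.u. in OM, 230 ± 23.6 in MB and 129 ± 15.3 in NM by its first probe, which crosses a splice junction in the coding part (chr5:137616945-137617394). The second probe (chr5:137616235-137616294), which has no open reading frame, gave 71.9 ± 8.92, 81.1 ± 9.39 and 69.0 ± 9.82 a.u. MB was the highest array by both, by 1.61-fold over OM for the first (log2 0.69, SD 0.09) and by 1.15-fold for the second (log2 0.21, SD 0.17), and the second difference was 1.2 times its technical SD. NM and OM did not differ beyond technical spread for either probe, with ratios of 1.01 (SD 0.09) and 1.09 (SD 0.16), and the sign for the first turned among the scalings, from -0.17 to 0.12 on the log2 scale.

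RET, the kinase that all GFRA co-receptors signal through, stayed at background on all arrays. Its probe, printed in 10 spots and spanning a splice junction in the part that encodes the kinase domain (chr10:42937418-42939131, plus strand), read 5.36 ± 0.827 a.u. on OM (SD, 9 spots), 4.89 ± 0.958 on MB (10 spots) and 7.08 ± 0.873 on NM (8 spots). The scanner software had put its surrogate value in place of the signal in 8, 9 and 8 of these spots, so no ratio is given. Spots of 1 array are technical repeats. RET mRNA was not detectable at this sensitivity in any of the populations, which is a limit of the signal and does not show absence.

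NCAM1, the adhesion molecule that can take the place of RET, was measured on every array, at 525 ± 52.8 a.u. in OM, 451 ± 45.4 in MB and 640 ± 64.5 in NM (chr11:112608654-112608713). NM was the highest and MB the lowest. MB over OM was 0.880 (log2 -0.18, SD 0.05), MB over NM 0.632 (log2 -0.66, SD 0.05) and NM over OM 1.39 (log2 0.48, SD 0.06).

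**Figure D2:**
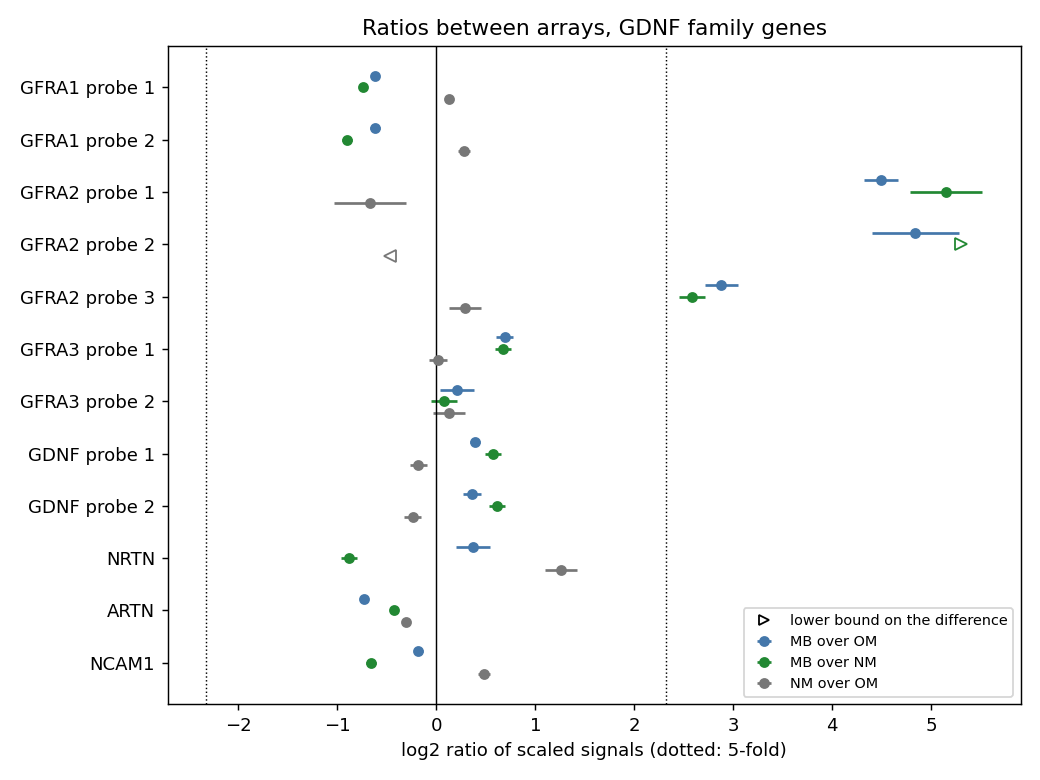
Log2 ratio of scaled signals for each probe, MB over OM, MB over NM and NM over OM, with 1 technical SD as bars, arrowheads for lower bounds and dotted lines at 5-fold. RET is left out because it was at background, and the GFRA2 probes alone lie past 5-fold, with GFRA1, ARTN and NCAM1 below 0 in both MB ratios.

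Among the ligands, GDNF was a little higher in MB by both probes. The first gave 385 ± 38.7 a.u. in OM, 493 ± 49.4 in MB and 297 ± 30.4 in NM, and the second gave 251 ± 25.5, 316 ± 31.9 and 186 ± 19.6 a.u. The order MB, OM, NM was the same for both. MB over OM was 1.31 (log2 0.39, SD 0.05) and 1.29 (log2 0.36, SD 0.09), MB over NM was 1.49 and 1.53, and NM over OM was 0.881 and 0.844. Over the alternative ways of processing, the log2 MB over OM of the first probe lay between 0.11 and 0.39. A far brighter probe described as an alternative form of GDNF, which lacks the symbol, was lower in MB than in OM (0.708).

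NRTN, the ligand that GFRA2 prefers, was highest in NM. Its signals were 95.1 ± 10.6 a.u. in OM, 120 ± 12.8 in MB and 199 ± 21.0 in NM. It was 2.39-fold higher in NM than in OM (log2 1.26, SD 0.16), and MB over NM was 0.542 (log2 -0.88, SD 0.08). MB over OM was 1.30 (log2 0.37, SD 0.17), a difference of 2.2 technical SDs, and its log2 value lay between 0.10 and 0.37 over the alternatives.

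ARTN, the GFRA3 ligand, was lower in MB than in either monolayer, where GDNF was higher. It gave 1979 ± 198 a.u. in OM, 1165 ± 117 in MB and 1405 ± 141 in NM. MB over OM was 0.602 (log2 -0.73, SD 0.03), MB over NM 0.744 (log2 -0.43, SD 0.03) and NM over OM 0.809 (log2 -0.31, SD 0.04). OM held the highest ARTN signal and MB the lowest.

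The ratio that chose GFRA2 was placed among other genes as a description. Of 10927 other known genes (those with a RefSeq mRNA accession and no provisional name) well above background on all arrays and represented by their brightest probe, 3 had a higher MB over OM ratio than its first probe and 1 had a higher MB over NM ratio. With normexp these counts were 5 and 7, and without background subtraction 4 and 7. For the third probe they were 31 and 83, or 86 and 169 with normexp and 69 and 153 without background subtraction. The 5 genes whose pattern was most like it, by the distance between their log2 MB over OM and NM over OM ratios, were SOX2 (distance 0.63), S100A4 (0.83), RLBP1 (1.05), MGP (1.05) and ID4 (1.22). SOX2, a transcription factor of embryonic and neural stem cells, gave 559 a.u. in OM, 7974 in MB and 287 in NM. S100A4, a calcium-binding protein, gave 1215, 39077 and 1033 a.u. ID4, an inhibitor of helix-loop-helix factors, gave 55.3, 1168 and 71.1 a.u., and MGP, an inhibitor of calcification, gave 132, 5906 and 62.9 a.u. The second GFRA2 probe had the same 5 nearest genes, although it was not well above background on NM. The third shared 0 of them, and the nearest to it were HMGCS1, LDB2, SECTM1, DPT and CADPS. Likeness over 3 arrays, 1 a population, is a description.

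**Figure D3:**
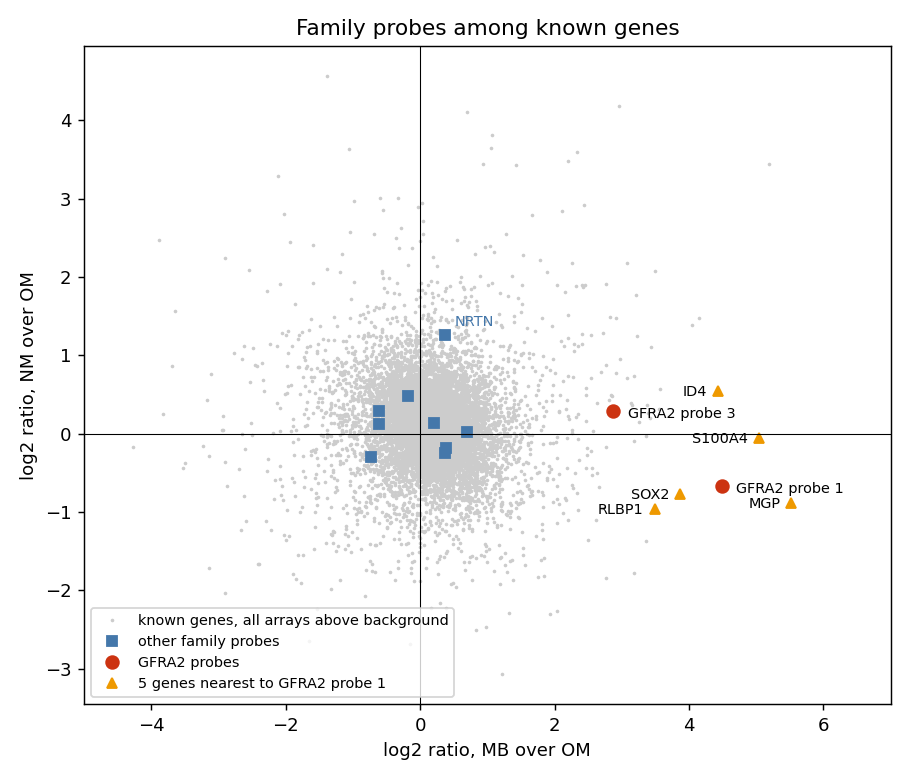
Each grey point is a known gene well above background on all arrays, placed by its log2 ratio of MB over OM (horizontal) and of NM over OM (vertical). GFRA2 probes 1 and 3 lie far to the right with a horizontal value of 4.49 and 2.88, probe 2 is not drawn because it was at background on NM, the other family probes lie near the centre, and NRTN lies above it at 1.26.

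Outside the 8 members, 5 of the 6 other genes of the family system were measured. PSPN, the ligand persephin, gave 101 a.u. in OM, 130 in MB and 88.6 in NM, and its co-receptor GFRA4 gave 1166, 930 and 1267 a.u. SDC3, a heparan sulphate proteoglycan that binds GDNF, gave 2747, 4984 and 1801 a.u., 2.48-fold higher in MB than in NM. GDF15, a distant member of the ligand family, was brightest in NM, at 16617 a.u. in OM, 12758 in MB and 55466 in NM, 3.81-fold higher in NM than in OM, while its receptor GFRAL was at background everywhere. None of the 5 was 2-fold apart between MB and OM with a signal above 100 a.u., where 5.42% of 22209 genes on the array were higher in MB and 3.38% lower. The median log2 MB over OM of the 5 was 0.41 beside 0.09 for all genes.

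Of 25 adaptors and proximal effectors of RET, 22 were measured in MB against OM, and 3 were 2-fold higher in MB and 1 lower, beside 5.42% and 3.38% of all genes, with a median log2 ratio of 0.41 (0.09 for all genes). SHC3, a neural adaptor of the Shc family, gave 44.1 a.u. in OM, 207 in MB and 175 in NM, 4.8-fold higher in MB than in OM and 4.53-fold higher in NM than in OM. SHC3 thus stayed high in the new monolayer, unlike GFRA2. SOS1, an exchange factor that activates Ras, gave 40.5, 119 and 46.0 a.u. (3.01-fold, MB over OM), and DOK1, a docking protein, gave 6708, 13765 and 4826 a.u. (2.10-fold). PTPRF, a receptor phosphatase, was 2.61-fold lower in MB than in OM, at 65657, 24601 and 51365 a.u., and 2.01-fold lower by its other probe.

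Against NM, 4 of 22 were 2-fold higher in MB, namely SOS1, DOK1, the kinase SRC (2.39-fold) and the ubiquitin ligase CBL (2.18-fold), beside 11.1% of 21921 genes. Lower in MB were 2 of 22, PTPRF and RAP1GAP, beside 8.39% of genes. RAP1GAP, which switches off the GTPase Rap1, was 2.95-fold lower by its brighter probe and 1.31-fold by the other. Between NM and OM, 2 of 21 were higher in NM, SHC3 and RAP1GAP, and 0 were lower, beside 3.55% and 4.86% of 21591 genes. The median log2 ratio was 0.19 for MB over NM (0.06 for all genes) and -0.01 for NM over OM (0.05 for all genes).

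Among the partners of NCAM1, FGFR1, a receptor tyrosine kinase that NCAM1 binds, gave 2704 a.u. in OM, 14656 in MB and 2644 in NM, 5.55-fold higher in MB than in OM. Its 6 probes gave 4.0-fold to 5.56-fold for MB over OM. SPTBN1, a spectrin that links NCAM1 to the cytoskeleton, was 2.19-fold higher in MB than in OM by its brighter probe and 1.76-fold by the other. These were the only 2 of 8 measured partners past 2-fold between MB and OM, and 0 were lower, beside 5.42% and 3.38% of all genes, with a median log2 ratio of 0.10 (0.09 for all genes). Against NM the same pair was higher in MB, and ST8SIA2 and GAP43 were lower, beside 11.1% and 8.39% of all genes. ST8SIA2, the enzyme that puts polysialic acid on NCAM1, gave 150, 140 and 326 a.u., 2.49-fold higher in NM than in OM, and the growth-cone protein GAP43 gave 866, 552 and 1662 a.u., 2.19-fold higher. These probes, like those of NCAM1 and NRTN, were brightest on NM. The other ST8SIA2 probe gave 7.47, 34.8 and 32.0 a.u. and was at least 1.71-fold higher in MB than in OM. It was well above background on MB only, so it gives no order of MB and NM. The other polysialic acid enzyme, ST8SIA4, was at background on every array.

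Of 14 transcription factors and signals that act with RET in the enteric neural crest, 10 were measured, and 3 were 2-fold higher in MB than in OM, with 0 lower, beside 5.42% and 3.38% of all genes, and a median log2 ratio of 0.50 (0.09 for all genes). EDNRB, the endothelin receptor of migrating crest cells, gave 308, 996 and 381 a.u. (3.31-fold, and at least 8.33-fold by its other probe), HAND2 gave 202, 490 and 160 a.u. (2.48-fold), and TLX2 gave 5490, 11417 and 3708 a.u. (2.13-fold, and 1.48-fold by its other probe). The same 3 were 2-fold higher in MB than in NM, beside 11.1% of all genes. HOXB5, a homeobox factor, was 2.28-fold lower in NM than in OM. EDN3 and GATA3 were at background on every array.

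Of 10 genes of the melanocyte lineage, 7 were measured in MB against OM with a median log2 ratio of 0.62, and the pigment enzymes TYR and TYRP1 and the melanosome receptor GPR143 were at background on every array. ERBB3, a neuregulin receptor of crest-derived cells, gave 737, 4055 and 253 a.u., 5.63-fold higher in MB than in OM and 14.4-fold higher than in NM. By its other probes it was 2.16-fold and 6.73-fold higher than in OM, and 2.68-fold and at least 5.61-fold higher than in NM. S100B, a marker of melanoma and glia, gave 25155, 43760 and 13307 a.u., 2.95-fold higher in MB than in NM. Of 15 markers of other cell types, those well above background numbered 6 in OM, 7 in MB and 5 in NM, and their summed scaled signal was 6484, 4663 and 7146 a.u. CD68 alone set that order, and without it the sums were 1768, 2896 and 1509 a.u., with MB the highest. Of the 8 markers measured in MB against OM, 1 was 2-fold higher in MB with a signal above 100 a.u. and 1 was lower. These stand beside 5.42% and 3.38% of all genes. The median log2 MB over OM of the 8 was 0.70 (0.09 for all genes). It was 0.48 (0.08 for all genes) with genes at background on 1 array set at their bound. COL1A1, COL3A1 and LUM of fibroblasts, CDH5 of endothelium, PTPRC of leukocytes, KRT5 of keratinocytes and ELAVL4 of neurons were at background on every array. KRT14, also of keratinocytes, was well above it throughout, at 213, 373 and 118 a.u., 2.85-fold higher in MB than in NM, and the fibroblast gene DCN was above it in MB alone, at 26.8 a.u. SNAP25, a synaptic protein, was 2.81-fold higher in MB than in OM at 137, 375 and 72.3 a.u., CD68 of macrophages was 2.67-fold lower in MB than in OM, and SYP, another synaptic protein, was 7.43-fold higher in NM than in OM. PECAM1, an endothelial marker, read 87.7 a.u. on MB and was at background on the others, at least 4.29-fold higher than in OM. The part of other cell types in the GFRA2 difference was not tested.

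**Figure D4:**
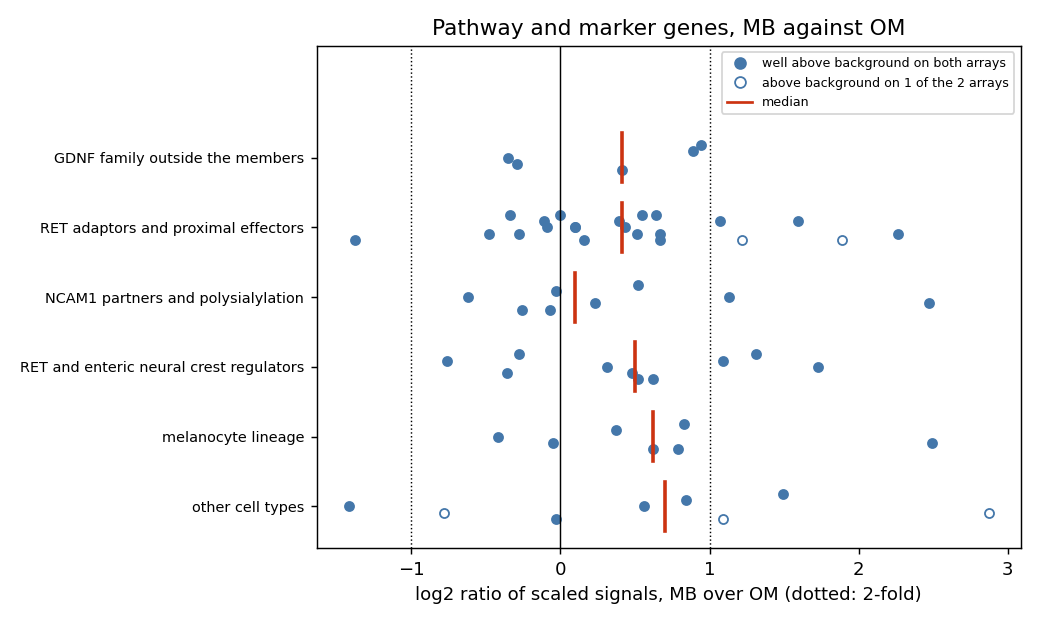
Log2 ratio of scaled signals, MB over OM, of each gene measured in the 6 lists, with a red line at each list's median and dotted lines at 2-fold. Open circles mark genes at background on 1 of both arrays. They stand at the ratio to the signal at background, not at the lower bound given in the text, and the medians include them. List medians run from 0.10 to 0.70, with single genes such as FGFR1, ERBB3 and SHC3 past 2-fold to the right.

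How much higher GFRA2 was in MB depended on how background was handled, since the monolayers were dim. With the first probe, MB over OM had a log2 ratio of 4.49. This became 3.46 (11.0-fold) with normexp background correction and 3.63 (12.4-fold) without background subtraction. MB over NM had a log2 ratio of 5.15, which became 3.62 (12.3-fold) and 3.86 (14.5-fold). The first 2 probes stayed past 5-fold in both comparisons with either method. The third came to 3.81-fold over OM and 3.47-fold over NM with normexp, and to 4.35-fold and 3.76-fold without background subtraction.

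**Figure D5:**
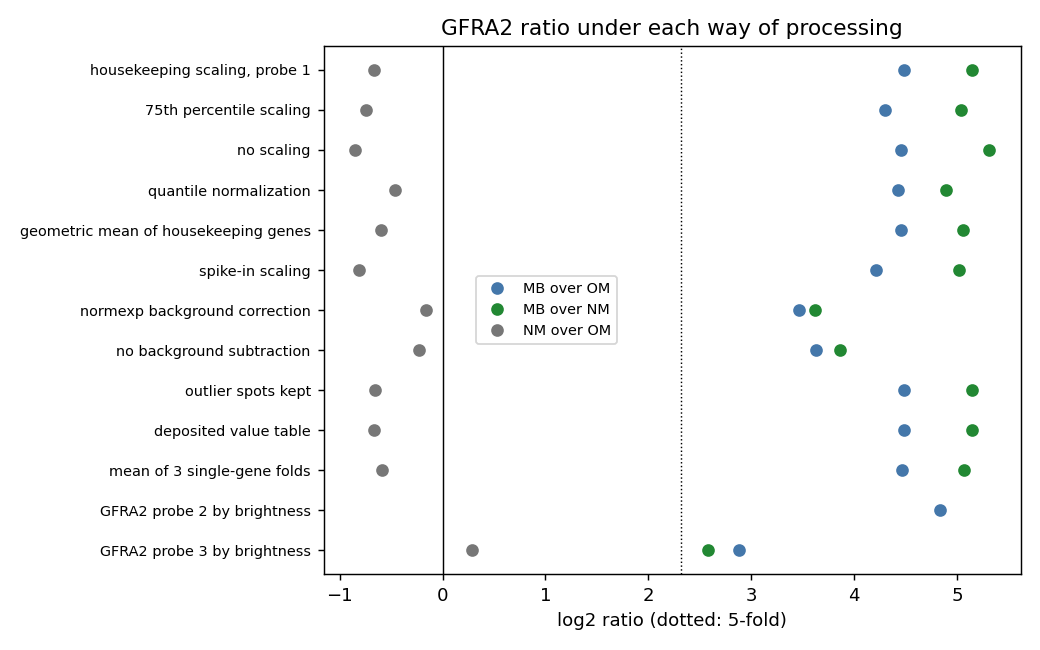
Log2 ratio of GFRA2 for MB over OM, MB over NM and NM over OM under each way of processing, the first row being the one used in the text, with a dotted line at 5-fold. The MB ratios of the first probe stay between 3.46 and 5.31 under every way of processing, and those of the third probe are 2.88 and 2.58. NM over OM is below 0 for the first probe throughout, from -0.85 to -0.16, and above 0 only for the third probe (0.29).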

How the data were processed

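Total RNA of 3 populations of 1205Lu cells was hybridised to Agilent 4x44K arrays in 1 colour, 1 array each, all on 1 slide. Spot intensity as deposited by the authors is the linear processed signal of Agilent Feature Extraction 9.5.3.1, from which background is already subtracted, with surrogates for low spots and no scaling between arrays; the deposited value table holds the same values (130128 of 130128 within 0.1%). Outlier spots (77, 79 and 81 on OM, MB and NM) and controls were left out, spots of a probe were averaged, and arrays were divided by the mean of 3 housekeeping genes as the study did. The study names HSP90 only, and HSP90AA1 was taken because its probe has 10 spots. A gene in a list was represented by its brightest probe. Where the dimmer signal was at background (not well above it by the software), a fold is a lower bound against the lowest signal well above background on that array or the probe's own, whichever is higher.

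Members and the 6 gene lists (81 entries, of which 76 matched by symbol, 3 by an older symbol and 2 not at all) were chosen with earlier results of these data known. Named were all members, up to 6 genes per list that were 2-fold apart between arrays with the brighter above 100 a.u., those of a list that were at background, and the 5 genes nearest to GFRA2; PSPN, GFRA4 and PECAM1 were added after their values were seen, and some list genes are not reported here. With 1 array a population, no test was run, and the number of arrays limits precision. The alternatives were 75th percentile, quantile, spike-in (8 probes), geometric-mean and no scaling, the mean of 3 single-gene folds (chosen after seeing the data), no background subtraction, normexp correction (offset 50, with limma 3.58.1 under R 4.3.3), outlier spots kept, the value table and other thresholds. Python 3.11.15, numpy 2.4.6, pandas 2.3.3 and matplotlib 3.10.9 were used.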

Additional observations from a re-analysis of the deposited data

Results flagged for a closer look

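A probe of the GDNF locus that carries a transcript name in place of the gene symbol was not among the members and was far brighter than background. The array describes it as an mRNA for an alternative form of GDNF, and it lies at chr5:37870632-37871502 on the minus strand in hg17, with its ends 871 bases apart. It gave 20378 ± 2038 a.u. in OM, 14094 ± 1409 in MB and 24793 ± 2479 in NM (error of the scanner software, 1 spot). MB over OM was 0.708 (0.584 to 0.711 over the alternatives), MB over NM 0.510 and NM over OM 1.39, whereas both probes with the GDNF symbol were highest on MB. It was noticed because it has signal in data that the comparisons did not use, and the difference between it and the GDNF probes was not tested.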

How the results depend on the processing

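GFRA2 was higher in MB than in either monolayer under every alternative tried. Its log2 MB over OM, 4.49 as reported, was 4.30 with 75th percentile scaling, 4.21 with spike-in scaling, 3.46 with normexp correction, 3.63 without background subtraction, 4.84 by the second probe and 2.88 by the third. MB over NM, 5.15 as reported, was 3.62 with normexp, 3.86 without background subtraction and 2.58 by the third probe. NM over OM, -0.67 as reported, was -0.16, -0.23 and 0.29 under the same changes, the last with its sign turned. The 3 probes past 5-fold in MB over OM became 2 with normexp and without background subtraction. In MB over NM they became 2 with those settings, with quantile normalization and with the filter that asks for both arrays above background. At a 2-fold threshold 1 member probe, that of NRTN, was higher in NM than in OM, where 0 passed 5-fold. GFRA1 NM over OM turned its sign with no scaling (-0.06) and with spike-in scaling (-0.02). Causes were not tested. No paired analysis was possible because each population has 1 array. Both monolayers lay near background for GFRA2, which limits how well its folds are known.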
